A study of Mus musculus with 13 samples.

Results

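The p53 targets of apoptosis are 10 genes that p53 is known to induce and whose proteins act in or around programmed cell death: Bax, Bbc3, Pmaip1, Perp, Phlda3, Trp53inp1, Fas, Tnfrsf10b, Apaf1 and Aen. They were picked by symbol from the 24421 genes of the counts, all 10 had reads in every library, and all 10 were among the 20044 genes tested. RNA was sequenced from mouse ES cells of the female line F1-2.1, a cross of CAST/Ei and 129/Sv/Jae, which carry a Tet-on transgene for CTCF S224E, a form of the zinc finger protein CTCF with glutamate in place of the serine that can be phosphorylated. Cells of 1 clone (A2), which keep their own CTCF genes, were grown in medium with LIF on irradiated fibroblast feeder cells, either with 1 μg/mL doxycycline for 6 days (+dox, 2 libraries) or without it (−dox, 2 libraries). The induced CTCF carries a FLAG tag and is expressed together with EGFP. Cells given dox but lacking the transgene, or carrying one for wild-type CTCF, were not analysed here. Effects of the S224E substitution, of added tagged CTCF, of EGFP and of dox therefore cannot be told apart. The comparison asks which genes change their RNA level when S224E is induced, a condition under which colonies of these cells were described as smaller.

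p53 is a transcription factor that accumulates after DNA damage and other stress and that binds paired copies of a short motif near its target genes. Its targets include genes that stop the cell cycle and genes that promote death. The latter act along 2 routes. In the mitochondrial route, small proteins that share only the BH3 motif with Bcl2, such as those of Bbc3 and Pmaip1, release Bax, which opens the outer mitochondrial membrane, and Apaf1 then assembles with cytochrome c into the apoptosome that activates caspases. In the other route, receptors at the cell surface such as Fas and Tnfrsf10b recruit caspases through an adaptor protein. Mouse ES cells contain abundant p53 and divide quickly, and p53 in these cells is also known for its link to differentiation.

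To show the kind of motif concerned, the p53 response element consensus, which is 20 bases long and made of 2 adjacent half-sites of 10 bases, was searched on both strands within 2000 bases of the start of each counted gene in mm9. The 4 fixed bases, C and G of each half-site, had to match, and at most 3 of the other bases could differ. These limits were chosen after the matches had been seen. The matches in Bax, Bbc3, Aen and Fas, which all had higher mean values with dox, are printed as examples. They are given 5′ to 3′ on the strand of the gene, with the fixed bases in capitals.
Bax: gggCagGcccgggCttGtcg
Bbc3: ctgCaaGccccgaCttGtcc
Aen: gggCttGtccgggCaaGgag
Fas: gggCatGtacaaaCatGtca
The sequence in Bax lies at chr7:52721944-52721963, 305 bases into the gene and in a noncoding part of an annotated exon, and differs from the consensus at 2 bases. The sequence in Bbc3 lies at chr7:16894835-16894854, with its first base 97 bases before the start of the gene, and differs at 3 bases. The sequence in Aen lies at chr7:86040823-86040842 in a noncoding part of an annotated exon and also differs at 3 bases, and Aen has a further match in an intron. The sequence in Fas lies at chr19:34366854-34366873 in an intron, 1705 bases from the start, and differs at 2 bases. With Pmaip1, 5 of the 10 genes held a match, against 3612 of the 20043 tested genes whose window could be read, and with at most 2 differing bases 3 of the 10 did, against 842 of them (4.2%). Phlda3, Perp, Trp53inp1, Tnfrsf10b and Apaf1 held none in this window. A match of letters is a description and does not show that p53 bound there in these cells.

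Counted reads ran from 22899107 to 30206085 per library, with the fewest in +dox replicate 1 and the most in −dox replicate 1. Levels are given as CPM, read counts divided by the library's total after scaling of that total with TMM factors. All 12 ES cell markers checked, among them Pou5f1, Nanog and Sox2, were present. Their summed level was 6748 and 7538 CPM with dox and 6152 and 6518 CPM without. Of the 12, 9 had higher and 3 lower values with dox, with a median log2 fold change of 0.16. Of all genes averaging 1 CPM or more, 49.8% had higher values with dox. Of 20 fibroblast markers, which feeder cells would add, none was at 0 in any library, and the summed level of the 18 that averaged 1 CPM or more was 2135 CPM in +dox replicate 1 and between 726 and 804 CPM in the other 3 libraries. Reads on 21 chromosome Y genes, which female cells lack, came to 236 in +dox replicate 1 and to between 67 and 76 in the others. The summed level of 9 primitive streak markers was 38.8 and 38.5 CPM with dox and 163 and 188 CPM without. The part of these markers and of the cells they stand for in the values below was not tested. In bulk RNA, fewer cells of a type and less RNA per cell cannot be told apart. Ctcf itself, whose RNA includes that of the transgene where the counted exons are shared, had 327 and 329 CPM with dox and 295 and 304 CPM without, a log2 fold change of 0.13 (edgeR adjusted p-value 0.475). This total does not give the share of the transgene. The paper reported that a minority of the RNA-seq reads over the altered codon carried the glutamate codon.

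Of the 10 genes, 8 had higher mean values with dox, and Fas, the gene with the fewest reads, had the largest difference, 1.79-fold with a 95% interval from 1.18 to 2.70. Phlda3, Bbc3, Bax and Aen had between 1.22-fold and 1.42-fold the −dox level, with similar values in both replicates, Pmaip1 was at 0.985 and Apaf1 was at 0.845 of the −dox level. All 20044 genes entered edgeR's quasi-likelihood test, and an adjusted p-value under 0.01 was required for a call. This test called 0 of the 10 genes in either direction, while it called 0.599% of all genes. At an adjusted p-value under 0.05 it held 1 of the 10, Phlda3, against 2.86% of all genes (0.928% higher and 1.93% lower with dox). At an unadjusted p-value under 0.05 it held 5 of the 10, Phlda3, Bax, Bbc3, Fas and Aen, all higher with dox, and 0 lower, against 8.48% of all genes higher and 9.31% lower with dox at that limit, or 10.9% higher of the 13911 genes that averaged 1 CPM or more. DESeq2 called 1 of the 10, Phlda3, which was higher, against 2.71% of the genes it tested (0.853% higher and 1.86% lower). Both +dox values lay above both −dox values for 7 of the 10 genes and below them for 1, against 26.1% and 27.7% of the genes averaging 1 CPM or more. The median log2 fold change of the 10 genes was 0.27, with 0.31 in replicate 1 and 0.24 in replicate 2, while the median of all genes tested was 0.0072. The 10 genes were chosen with earlier results of these data known. Their counts and median beside those of all genes are therefore a description and not a test. With 2 libraries per condition, an exact permutation test of a single gene cannot give a two-sided p-value under 0.333, so no such test was made for single genes.

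**Figure D1:**
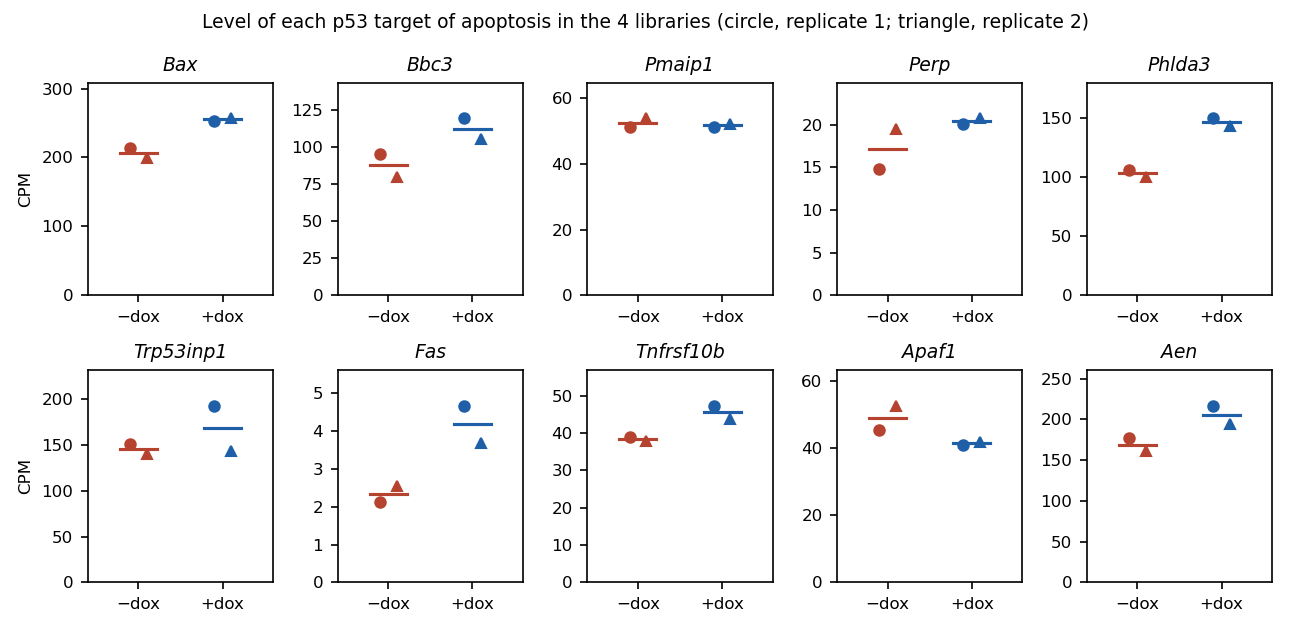
Level of each p53 target of apoptosis in CPM (vertical axis, from 0) in −dox (red) and +dox (blue) cells, with 1 point per library and a bar at the mean of 2 libraries. The +dox points lie above the −dox points for 7 genes, below them for Apaf1, and overlap them for Pmaip1 and Trp53inp1.

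Bax encodes the protein that opens the outer mitochondrial membrane, and it had the highest level per exon length of the group. Bax (chromosome 7, 52717065 to 52722268 in mm9, minus strand) had 253 and 257 CPM with dox, in replicates 1 and 2, and 213 and 199 CPM without. Both +dox values were above both −dox values, and the 2 +dox libraries lay closer together than the 2 −dox libraries. The log2 fold change was 0.31 (standard error, SE, 0.09), a 1.24-fold difference with a 95% interval from 1.08 to 1.42, and edgeR adjusted its p-value to 0.0874. The separate replicates gave log2 fold changes of 0.25 and 0.37. DESeq2 gave an adjusted p-value of 0.0469. These counts do not resolve the splice forms of Bax, since reads were counted over 1 transcript per gene.

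The 2 BH3-only genes differed from each other in their values. Bbc3 encodes PUMA, a protein that binds the survival members of the Bcl2 family and can activate Bax. Bbc3 (chromosome 7, 16894932 to 16903683, plus strand) had 119.6 and 105.5 CPM with dox and 95.6 and 80.1 CPM without. Both +dox values were above both −dox values, and replicate 1 was the higher of each condition. Its log2 fold change was 0.36 (SE 0.12), a 1.28-fold difference with a 95% interval from 1.08 to 1.52 (edgeR adjusted p-value 0.120, DESeq2 0.0946). Pmaip1 encodes NOXA, which binds the survival protein Mcl1. Pmaip1 (chromosome 18, 66618258 to 66625212) had 51.3 and 52.1 CPM with dox and 51.2 and 53.9 CPM without. The conditions overlapped, the 4 libraries lay close together, and the log2 fold change was -0.02 with a 95% interval from -0.27 to 0.23 (edgeR adjusted p-value 0.947). The interval of Pmaip1 leaves room for a rise of up to 1.17-fold or a fall to 0.829 of the −dox level. The difference between the changes of Bbc3 and Pmaip1 was not tested.

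Perp, Phlda3 and Trp53inp1 encode proteins that promote death by other means. Phlda3 encodes a small protein with a pleckstrin homology domain that binds membrane phosphoinositides and competes with the survival kinase Akt for them. Phlda3 (chromosome 1, 137662662 to 137665711, plus strand) had 149.7 and 143 CPM with dox and 105.7 and 100.4 CPM without. The gap between the conditions was several times the distance between libraries of the same condition. Its log2 fold change was 0.51 (SE 0.10), a 1.42-fold difference with a 95% interval from 1.23 to 1.64, and the separate replicates gave 0.50 and 0.51. With an adjusted p-value of 0.0190, Phlda3 missed the threshold in edgeR, and it passed in DESeq2 (adjusted p-value 4.97e-04). By unadjusted p-value Phlda3 stood at rank 187 of the 20044 genes in edgeR, close to Cdkn1a at rank 196 and Trp53 at rank 206. The order of Phlda3 and Cdkn1a was the reverse in DESeq2, where Cdkn1a had an adjusted p-value of 4.18e-04.

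Perp encodes a membrane protein of desmosomes that p53 induces during apoptosis. Perp (chromosome 10, 18564877 to 18576878, plus strand) had 20.1 and 20.8 CPM with dox and 14.8 and 19.5 CPM without. The lowest value was that of −dox replicate 1, and −dox replicate 2 was close to the +dox libraries. The log2 fold change was 0.25 (SE 0.18; edgeR adjusted p-value 0.506), with 0.44 in replicate 1 and 0.09 in replicate 2. Trp53inp1 encodes a nuclear protein that binds p53 and also acts in autophagy. Trp53inp1 (chromosome 4, 11083588 to 11101524, plus strand) had 192.7 and 143 CPM with dox and 151 and 139.7 CPM without. +dox replicate 1 stood above the other 3 libraries, which lay close together, and the conditions overlapped. Its log2 fold change was 0.21 (SE 0.13; edgeR adjusted p-value 0.435), and it was -0.02 without +dox replicate 1 and 0.41 without +dox replicate 2.

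Both death receptors had values higher with dox, at a much lower level than Bax. Fas encodes the receptor for Fas ligand and had the lowest level of the 10 genes. Fas (chromosome 19, 34365149 to 34402260, plus strand) had 105 and 84 reads with dox and 65 and 64 without, or 4.66 and 3.68 CPM against 2.13 and 2.55 CPM. Both +dox values were above both −dox values, and +dox replicate 1 was the highest. Its log2 fold change of 0.84 was the largest of the 10 and had the largest standard error, 0.28, for a 1.79-fold difference with a 95% interval from 1.18 to 2.70. edgeR adjusted its p-value to 0.125 and DESeq2 to 0.244. The separate replicates gave 1.10 and 0.51, and without +dox replicate 1, the library with the most fibroblast marker RNA, the log2 fold change was 0.66 (edgeR adjusted p-value 0.240).

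Tnfrsf10b encodes the mouse receptor for the death ligand TRAIL. Tnfrsf10b (chromosome 14, 70167279 to 70184218, plus strand) had 47.4 and 43.8 CPM with dox and 38.9 and 37.8 CPM without. Both +dox values were higher than both −dox values. The log2 fold change was 0.25 (SE 0.12), a 1.19-fold difference whose 95% interval from 0.987 to 1.43 includes no change (edgeR adjusted p-value 0.322). The ligands of these receptors were nearly absent. Fasl and Tnfsf10 both had a mean under 1 CPM and were at 0 in at least 1 library each.

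Apaf1, the scaffold of the apoptosome, and Aen, a nuclease that digests DNA in dying cells, had values on opposite sides. Apaf1 (chromosome 10, 90452056 to 90545488, minus strand) had 41.1 and 42.0 CPM with dox and 45.6 and 52.8 CPM without. It was the only one of the 10 genes with both +dox values below both −dox values. The log2 fold change was -0.24 (SE 0.13) with a 95% interval from -0.52 to 0.03 (edgeR adjusted p-value 0.349, DESeq2 0.406). Aen (chromosome 7, 86040813 to 86053719, plus strand) had 217 and 194 CPM with dox and 177 and 161 CPM without. Both +dox values were above both −dox values, and replicate 1 was the higher of each condition. Its log2 fold change was 0.28 (SE 0.10), a 1.22-fold difference with a 95% interval from 1.05 to 1.41 (edgeR adjusted p-value 0.146, DESeq2 0.130).

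**Figure D2:**
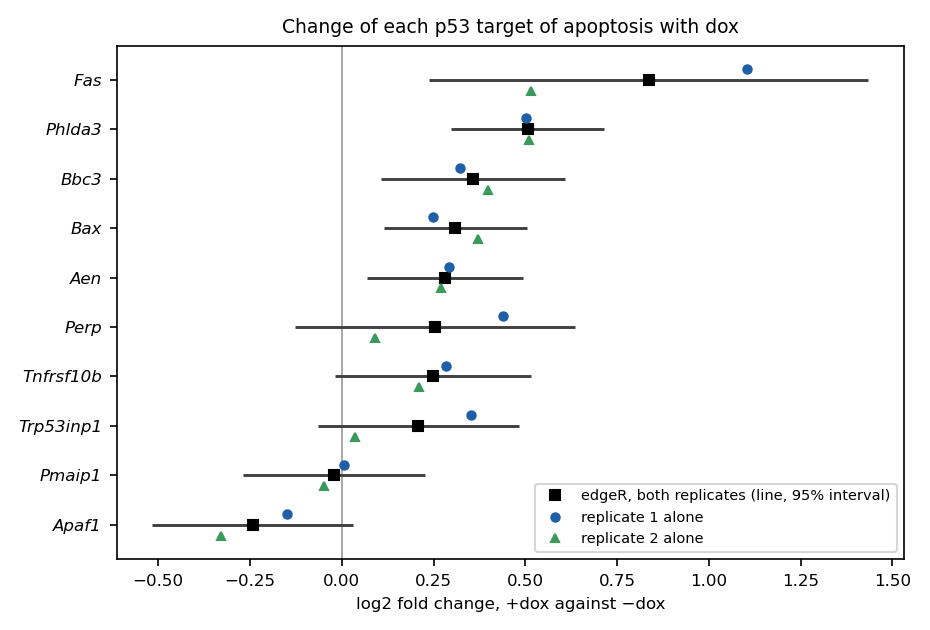
log2 fold change of +dox against −dox (horizontal axis) for each p53 target of apoptosis (rows), with edgeR's value and 95% interval (square and line) and the value within replicate 1 (circle) and replicate 2 (triangle). Phlda3 lies at 0.51 with both replicates beside it, Fas at 0.84 with the widest interval, and Apaf1 at -0.24.

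The levels of the 10 genes were compared with each other only per exon length, in CPM per kb of the counted transcript. Averaged over the 4 libraries, Bax had 268 CPM per kb, followed by Phlda3 (85.3), Aen (72.8), Bbc3 (50.9), Trp53inp1 (28.9), Pmaip1 (19.7), Tnfrsf10b (13.2), Perp (9.91), Apaf1 (6.95) and Fas (2.21). Bax thus stood 3.14 times above its nearest neighbour and Apaf1 3.15 times above Fas. Neighbours in this order did not overlap in the +dox libraries. In the −dox libraries Phlda3 overlapped with Aen and Perp with Apaf1, so those neighbours were not separated beyond the spread of the libraries there. Exon lengths ran from 861 nt for Bax to 6528 nt for Apaf1, the same transcript was counted in both replicates for all 10 genes, and none shares exon sequence with another annotated gene.

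**Figure D3:**
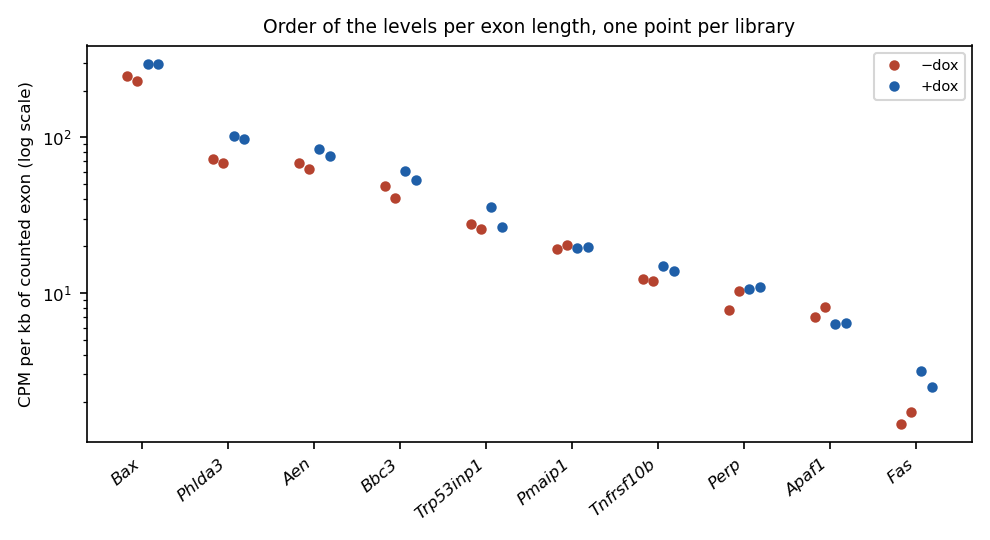
Level per exon length in CPM per kb (vertical axis, logarithmic) of the 10 genes in descending order, with 1 point per library for −dox (red) and +dox (blue). The levels run from a mean of 268 CPM per kb for Bax to 2.21 for Fas.

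The 2 replicates were compared because the fibroblast marker RNA was not evenly spread among the libraries. Within replicate 1 and within replicate 2, 8 of the 10 genes had higher values with dox in both and Apaf1 lower values in both, while 34.0% of the genes averaging 1 CPM or more were higher in both and 35.7% lower in both. Bax, Bbc3, Phlda3, Tnfrsf10b and Aen had similar log2 fold changes in the separate replicates. Fas, Perp and Trp53inp1 had the larger values in replicate 1, where the +dox library held the additional fibroblast marker RNA. For Perp the −dox library of replicate 1 was the low one, and its log2 fold change was 0.28 without +dox replicate 1, 0.07 without −dox replicate 1 and 0.46 without −dox replicate 2. Over the 18 fibroblast markers averaging 1 CPM or more, 17 had higher values with dox, and the median log2 fold change was 1.82 in replicate 1 and 0.37 in replicate 2. The part of this RNA in the values of Fas and Trp53inp1 was not tested. Without +dox replicate 1, Phlda3 had a log2 fold change of 0.47 (edgeR adjusted p-value 0.00606) and Bax one of 0.32 (0.0772). Without +dox replicate 2 the adjusted p-value of Phlda3 was 9.69e-04, while it was 0.550 without −dox replicate 1 and 0.670 without −dox replicate 2, with log2 fold changes of 0.54 and 0.47.

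**Figure D4:**
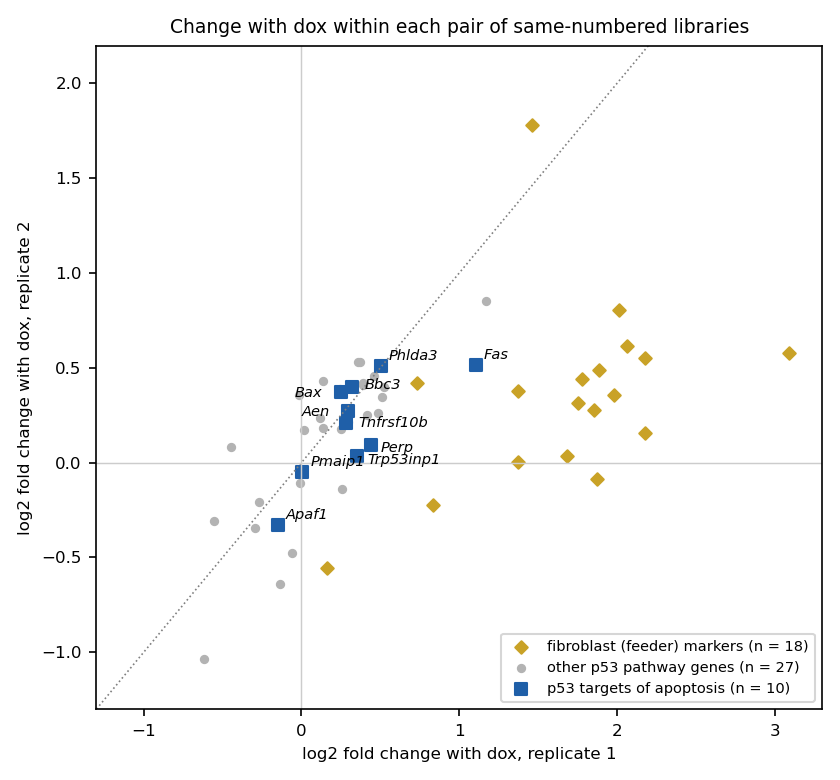
log2 fold change with dox in replicate 1 (horizontal axis) and replicate 2 (vertical axis) for the 10 p53 targets of apoptosis (squares), 27 other p53 pathway genes (circles) and 18 fibroblast markers (diamonds), with a dotted line where both are equal. Most fibroblast markers lie far to the right of the line, at medians of 1.82 (replicate 1) and 0.37 (replicate 2), while Phlda3, Bax, Bbc3 and Aen lie near it.

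Other genes of the p53 pathway were described from a list of 27, set by role. edgeR called 1 of them higher and 1 lower with dox, against 0.0798% and 0.519% of all genes, and DESeq2 called 6 higher and 1 lower, against 0.853% and 1.86% of the genes it tested. The list had a median log2 fold change of 0.21, and 19 of the 27 had higher values with dox. The genes called by edgeR both belong to redox and metabolic stress. Ephx1, an epoxide hydrolase of detoxification, rose to 57.9 ± 15.2 CPM (SD, n = 2) from 28.3 ± 3.10 CPM (SD, n = 2), with a log2 fold change of 1.03 (edgeR adjusted p-value 0.00901). Ddit4, an inhibitor of mTORC1 signalling that hypoxia and other stress also induce, fell by 0.82 on the log2 scale (edgeR adjusted p-value 0.00332). These were also the highest and the lowest values of the list.

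By role, the 7 genes of cell cycle arrest had a median log2 fold change of 0.37, with 6 of them higher with dox. edgeR called 0 of the 7 and DESeq2 called 3, all higher, against 0.853% of the genes DESeq2 tested. Cdkn1a, which encodes the inhibitor p21 of cyclin-dependent kinases, had a 1.37-fold and Phlda3 a 1.42-fold difference. The 4 regulators of p53 had a median of 0.31. Trp53 and Mdm2, which encodes the ligase that degrades p53, had 0.41 and 0.43 (edgeR adjusted p-values 0.0211 and 0.0289, DESeq2 7.35e-04 and 0.0023). The 4 other death-linked targets, Ei24, Pidd1, Eda2r and Siva1, all had higher values with dox, with a median of 0.22, and 0 were called by edgeR or DESeq2, while 2 had an unadjusted p-value under 0.05 in edgeR, against 8.48% of all genes higher at that limit. The 4 genes of DNA repair had a median of -0.21, and the 8 of redox and metabolism a median of 0.05.

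The apoptosis machinery that acts with these genes was described from a further list of 27 genes, of which 25 had a mean of at least 1 CPM. edgeR called 0 of the 27 and DESeq2 0 of these 25, while edgeR gave 2 an unadjusted p-value under 0.05 with higher and 3 with lower values, counts near the shares of all genes at that limit (8.48% and 9.31%). The median log2 fold change was 0.01, with 13 of 25 higher with dox. Among these 25, the survival members of the Bcl2 family included both the lowest value and an abundant gene with a small difference. Bcl2 had 1.47 and 0.920 CPM with dox and 2.26 and 2.07 CPM without, a log2 fold change of -0.86 (SE 0.35; edgeR adjusted p-value 0.207). Mcl1, named here after its values were seen because NOXA binds its protein, had 660 CPM with dox and 592 CPM without, with a log2 fold change of 0.16 (edgeR adjusted p-value 0.391). The highest value of the 25 was that of Fadd, the adaptor that links death receptors to caspases, at 17.8 and 18.7 CPM with dox and 14.8 and 11.8 CPM without. Its log2 fold change was 0.45 (edgeR adjusted p-value 0.198). The 6 other BH3-only genes had a median of -0.23, and the 7 genes of the apoptosome and the caspases a median of -0.20. Bmf, a BH3-only gene named here after its values were seen, had the smallest edgeR p-value of the list. Its log2 fold change was -0.67 (edgeR adjusted p-value 0.0413, DESeq2 0.0116).

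**Figure D5:**
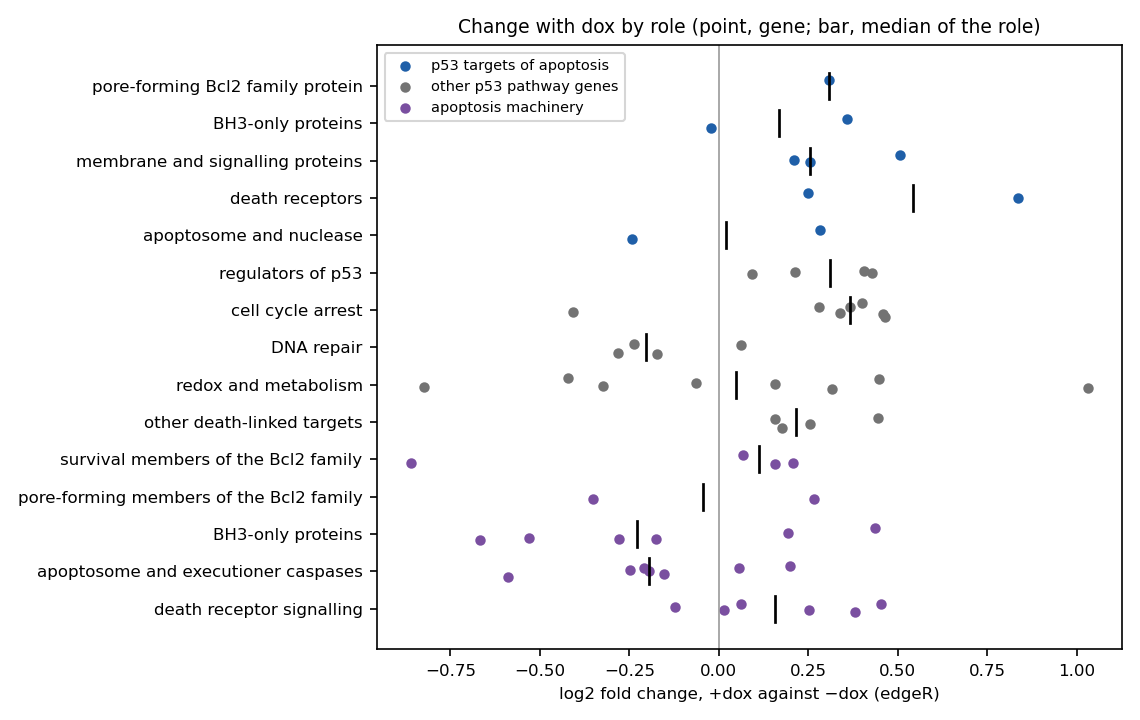
log2 fold change of +dox against −dox from edgeR (horizontal axis) for the p53 targets of apoptosis, other p53 pathway genes and apoptosis machinery with a mean of at least 1 CPM, set by role (rows), with 1 point per gene and a bar at the median. The median is 0.37 for cell cycle arrest, 0.31 for regulators of p53, -0.21 for DNA repair and -0.23 for the BH3-only genes outside the p53 targets.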

How the data were processed

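Per the methods, the authors used cutadapt for trimming, TopHat2 for alignment to mm9 and HOMER for counting unique reads on exons after PCR duplicates had been taken out. The raw counts per gene were deposited without normalization, separately for replicates 1 and 2, and were joined by gene symbol. For 547 genes the counted transcript differed between the replicates. Tool versions and the use of strand are not given in the sources used here. ChIP-seq and Hi-C samples were not analysed here. The columns were matched to libraries from the right, since the header lacks a separator.

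The replicates are called biological in the study's methods, and p-values set the difference between conditions against the spread between these libraries. All libraries come from 1 clone, so the p-values do not cover differences between clones. Every gene with a read in any library was tested with edgeR 4.0.16 (R 4.3.3, TMM, quasi-likelihood, default settings, no replicate block), with Benjamini-Hochberg adjustment over all 20044 genes and a threshold of 0.01. Standard errors and 95% intervals come from the test statistic. DESeq2 1.42.0 with defaults adjusted over 13826 genes. A prior count of 2 was added for log2 values within a replicate. The members, gene lists and tests were chosen with earlier results of these data known. Named genes are all members, Trp53, Mdm2, Cdkn1a, Ctcf, and called or extreme genes of the 2 lists. Mcl1 and Bmf were added after their values were seen. Alternatives were DESeq2, a replicate block, other scaling, filterByExpr, adjusted deviances, a threshold of 0.05 and leaving out each library.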

Additional observations from a re-analysis of the deposited data

How the results depend on the processing

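The main settings called 16 of all genes higher and 104 lower with dox. DESeq2 called 118 and 257, a threshold of 0.05 gave 186 and 387, filterByExpr 0 and 11, adjusted deviances 0 and 0, and scaling by total counts 5 higher. Leaving out 1 library at a time gave from 0 to 519 higher and from 0 to 696 lower, with 296 and 696 without +dox replicate 1, 519 and 358 without +dox replicate 2, and 0 and 0 without either −dox library. The lone library of a condition is then assumed to vary like the other condition. The cause was not tested.

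Of the 10 p53 targets of apoptosis, 1 was called higher in place of 0 by DESeq2, at a threshold of 0.05 and without either +dox library (leave-one-out range 0 to 1), in each case Phlda3, with a log2 fold change of 0.51 in DESeq2. Of the other p53 pathway genes, 6 were called higher in place of 1 by DESeq2 and at 0.05, 0 with total counts, filterByExpr or adjusted deviances, and 0 to 7 with a library left out. For lower values the count of 1 became 0 with filterByExpr or adjusted deviances, and ran from 0 to 1 with a library left out. In the apoptosis machinery 1 gene was lower in place of 0 at 0.05, and 0 to 1 with a library left out. The direction turned for Trp53inp1, whose log2 fold change ran from -0.022 (without +dox replicate 1) to 0.407 (without +dox replicate 2), and for Pmaip1, from -0.059 (without −dox replicate 1) to 0.0141 (without −dox replicate 2). Neither was called. With 1 library left out, the log2 fold change ran from 0.07 to 0.46 for Perp, from -0.34 to -0.14 for Apaf1, from 0.23 to 0.49 for Bbc3, from 0.20 to 0.36 for Aen, from 0.19 to 0.30 for Tnfrsf10b, from 0.66 to 1.00 for Fas, from 0.26 to 0.36 for Bax and from 0.47 to 0.54 for Phlda3.

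The libraries share replicate numbers, and the deviations of the 2 pairs correlated at 0.196 over 13911 genes. With 2 pairs, the main test took the number as a name only. Values given for a single replicate compare same-numbered libraries and so depend on this pairing. With a replicate block edgeR called 316 genes higher and 470 lower. Of the 10 targets it called 1 higher (Phlda3, log2 fold change 0.51, adjusted p-value 0.00132). It also called 6 other p53 pathway genes higher and 1 apoptosis machinery gene lower. In this fit the edgeR adjusted p-values of Bax, Bbc3, Aen and Fas were 0.0218, 0.0247, 0.0430 and 0.0475. Those of the remaining targets were 0.239 or higher.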
